A study of Solanum tuberosum with 5 samples.

Results

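The time course in constant long days followed the messenger RNA tags of potato plantlets whose photoperiod was never changed. It consisted of 3 libraries of whole plantlets of the genotype labelled E26, all grown for 3 weeks in long days (LD) and taken on day 0, or after 2 or 5 further days in LD, with 1 library for each day. The series also holds plantlets of the same genotype and age that were moved to short days (SD) on day 0 and taken on day 2 or day 5, again with 1 library each, so that E26 and the 3 weeks in LD are common to all 5 groups. The labels give neither the number of plantlets in a library nor the hour at which they were taken.

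The members are tags that all 3 LD libraries list and that reached 10 tags per 1000000 tags of the library (TPM) in at least 1 of them. This gave 6895 tags, out of 10908 listed in all 3 LD libraries, 24266 listed in at least 1 LD library and 27553 in the whole series. The highest value of a member was as low as 10.03 TPM, and that of the nearest tag left out was 9.87 TPM. In all, 12657 tags reached 10 TPM in an LD library, and the requirement to be listed on every day removed 5762 of them. The listed tags summed to between 52.9% and 58.9% of an LD library's total. Members held between 69.4% and 70.2% of that listed sum, which is 37.1% to 40.8% of the whole library. Library totals, read from the smallest step between values, lay between 3492458 tags in SD day 5 and 3688115 tags in LD day 5. A value of 10 TPM rested on 34.9 to 36.9 tags.

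Potato forms tubers more readily in short days, and plantlets kept in long days continue to make leaves, stems and roots. Differences between the LD libraries can come from growth, from the hour of sampling or from the libraries themselves, and with 1 library a day these cannot be told apart. A tag is a short stretch of a transcript beside a restriction site, and its number of copies measures how abundant that transcript was in the pool of messenger RNA. Tags were not matched to transcripts here, so the results concern tags and no gene is named. In a whole plantlet, a larger share of the cells that make a transcript and more transcript per cell cannot be told apart.

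Each member was described by 2 steps, the log2 ratio of LD day 2 over LD day 0 and the log2 ratio of LD day 5 over LD day 2, both with 1 TPM added to each value. The first step spans 2 days and the second 3 days. A step counted as a change, and is here called higher or lower, when its size was at least 1, that is 2-fold on this scale. A tag that changed in the same direction at both steps was put in the steady pattern, one that changed only at the first step in the early pattern, one that changed only at the second step in the late pattern, and one that changed in opposite directions in the peak or trough pattern. Because the patterns were defined by these values, the levels on which they rest are a description. With 1 library for each day there is no replicate check, and no test between days was possible.

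More tags changed in the first step than in the second. LD day 2 was higher than LD day 0 for 1416 members and lower for 887, in sum 33.4% of the members. LD day 5 was higher than LD day 2 for 456 members and lower for 665, in sum 16.3%. The same calls over all tags listed in the pair of libraries with 10 TPM or more in 1 of them were 20.3% higher and 13.6% lower for the first step, and 6.94% higher and 8.94% lower for the second. Since the members were drawn from those tags, nothing is read from the closeness of these shares. At 4-fold, 248 members were higher and 124 lower at the first step, and 52 were higher and 115 lower at the second. No 4-fold share over all tags was computed, so these counts describe the members alone.

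The majority of higher tags at the first step varied with the scaling of the libraries. It was smaller under trimmed-mean scaling, with 1229 higher and 1058 lower, and after rescaling to the sum of the listed tags, with 1272 and 1019. With median-of-ratios factors computed over the members, the split was 1117 higher and 1178 lower in place of 1416 and 887. The median first step moved to -0.05 from 0.13. Such factors draw the median step of these members towards no change by construction, so they alone favour an even split. At the second step the lower tags were the larger number under the deposited values and under each of the 3 other scalings tried, with 409 higher and 724 lower under trimmed-mean scaling and 384 higher and 753 lower after rescaling to the sum of the listed tags. Many tags lay close to the limit. The smallest step that counted had a size of 1.0008 and the largest that did not had 0.9985, and 695 members had a first step within 0.1 of it.

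**Figure D1:**
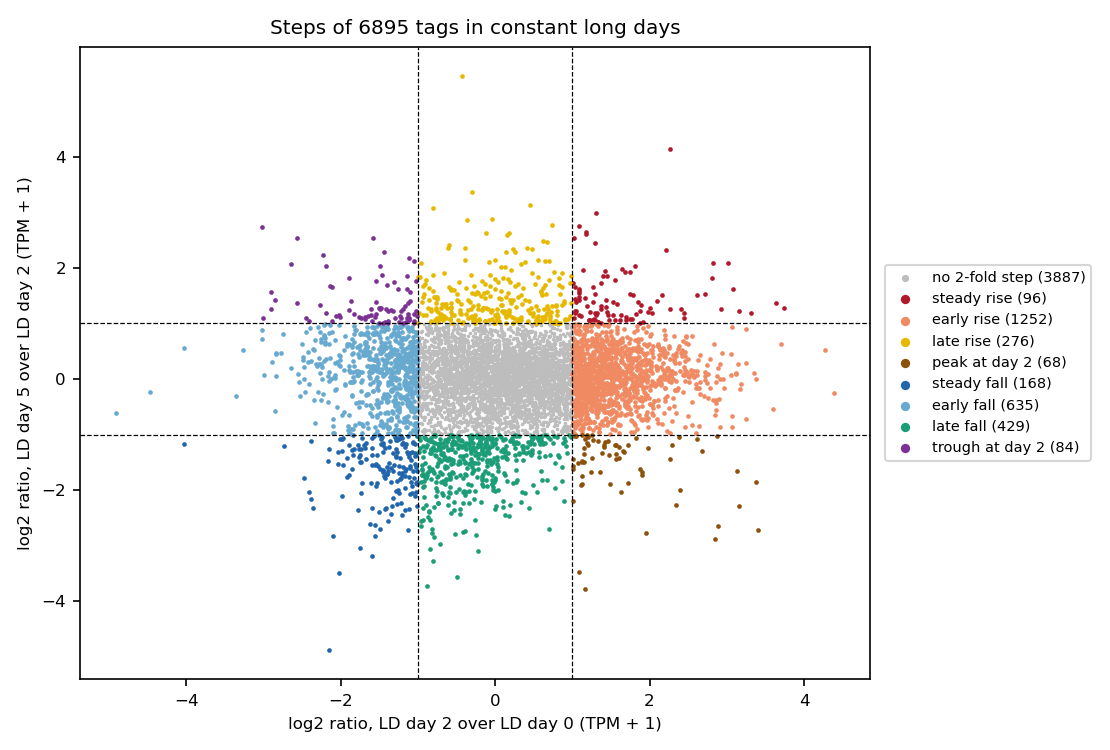
First step (horizontal axis, log2 ratio of LD day 2 over LD day 0) and second step (vertical axis, log2 ratio of LD day 5 over LD day 2) of the 6895 members, 1 point each, with dashed lines at 2-fold. The early patterns to the right and left of the centre hold 1252 and 635 tags, while the corners, where both steps reached 2-fold, hold between 68 and 168 tags each.

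A first-step change with no 2-fold change afterwards was the most frequent pattern. It comprised 1252 early-rising members, or 18.2%, and 635 early-falling members, or 9.2%. The balance varied with the scaling, with 993 rising and 858 falling under median-of-ratios factors. It was 1010 and 784 when steps were centred by base composition. Both of these settings draw the median first step towards no change, which alone favours an even balance. Trimmed-mean scaling gave 1087 rising and 763 falling, and rescaling to the sum of the listed tags 1129 and 739. Late changes were fewer, with 276 members rising and 429 falling. Steady changes were made by 96 rising and 168 falling members. Reversals were the rarest, with 68 members that peaked on day 2 and 84 that had a trough on that day. The remaining 3887 members, 56.4%, had no 2-fold step. Among these, 365 were nevertheless 2-fold higher and 279 2-fold lower on day 5 than on day 0, because both of their steps went the same way below the limit.

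Over the whole 5 days, 1681 members were higher and 1249 lower in LD day 5 than in LD day 0. In sum this was 42.5% of the members. The background over all tags of that pair was 25.0% higher and 18.2% lower. The members were drawn from those tags, so nothing is read from the closeness of these shares either. At 8-fold or more, 78 members were higher and 118 lower, and no 8-fold share over all tags was computed. The steady patterns, whose definition requires 2 steps of 2-fold in the same direction, held 43 of those 78 and 86 of those 118.

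The summed level of the early-rising tags was 36826 TPM on day 0, 110080 TPM on day 2 and 106550 TPM on day 5. This was 3.68% of the whole library on day 0, 11.0% on day 2 and 10.7% on day 5. The 4 most abundant of them contributed 11297, 31655 and 24742 TPM on the 3 days. Without those 4 tags the sum was 25528, 78424 and 81805 TPM. The pattern's definition fixes the direction of these sums between days 0 and 2. The median early-rising tag had 8.46 TPM on day 0, 26.5 TPM on day 2 and 27.4 TPM on day 5.

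By definition, the early-rising tags had no 2-fold step after day 2. Their median second step was 0.05, with 692 tags above 0 and 560 below. On day 5, 1022 of the 1252 were still 2-fold higher than on day 0, and 333 of them were 4-fold higher or more. The median level of the early-falling tags was 34.1 TPM on day 0, 11.9 TPM on day 2 and 13.0 TPM on day 5, the median second step was 0.20, and 395 of 635 had a second step above 0. As these tags were chosen for a low value on LD day 2, which the second step shares, the choice alone favours a positive second step. Of the 635, 433 were still 2-fold lower on day 5 than on day 0. Their summed level was 58471, 18765 and 22135 TPM on days 0, 2 and 5.

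The late-rising tags were level over the first step on the deposited scale, with a median first step of 0.00. They had medians of 9.58, 9.03 and 28.5 TPM on days 0, 2 and 5. Over all members the median first step was 0.13 on that scale and -0.05 with median-of-ratios factors. The medians by pattern were not recomputed with those factors. The late-falling tags had already drifted on the deposited scale. Their median first step was -0.31, and 304 of 429 had a first step below 0, against 3077 of all 6895 members. Their medians were 26.5, 22.0 and 7.59 TPM on the 3 days.

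Steady tags had the widest median span, but their definition already requires at least 4-fold between days 0 and 5. The steady-rising tags had medians of 3.81, 13.3 and 43.8 TPM, and their summed level was 902, 4699 and 13275 TPM on days 0, 2 and 5. The steady-falling tags had medians of 42.6, 15.0 and 4.34 TPM, with sums of 22003, 8079 and 2560 TPM. The median ratio of day 5 over day 0 was 2.89 on the log2 scale for the rising tags and -3.03 for the falling tags.

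Reversing tags are by definition those that changed back. The peak tags had medians of 7.89, 24.1 and 8.41 TPM on days 0, 2 and 5, and the trough tags of 18.9, 6.77 and 18.0 TPM. Of the 68 peak tags, 7 were still 2-fold higher and 3 were 2-fold lower on day 5 than on day 0. Of the 84 trough tags, 2 were higher and 8 lower. As both steps share the library of day 2, a value that is off in that library alone gives a peak or a trough, and no other library of that day and photoperiod exists to compare. In the same way, a value off in LD day 0 alone gives an early pattern, and one off in LD day 5 alone a late pattern.

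The 3 tags farthest out in each pattern were singled out by the size of a log2 ratio. For steady tags this was the ratio of day 5 over day 0. For early and late tags it was the step that changed, and for peak and trough tags the smaller of both steps. Fold values of single tags below were formed with no TPM added, and have exact 95% intervals that cover counting error only. These tags were chosen as the farthest out by the same counts from which the intervals were formed. The choice alone favours ratios that are too far out, and the intervals make no allowance for it. The level of 95% therefore does not hold for tags chosen in this way, and the intervals are given as a description. Such intervals treat tags as independent molecules, which copies made by amplification are not. Where an SD library does not list a tag, no low level is read from that, because some very abundant tags were also unlisted in SD.

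Among the steady-rising tags, the largest change was that of a tag with 0.56, 6.49 and 131 TPM on days 0, 2 and 5. The first of these values rested on 2 tags, and the ratio of day 5 over day 0 was 232 (interval 64.0 to 1924). In SD it stood at 0.57 TPM on day 2 and 59.3 TPM on day 5, below LD on both days. The tag ranked next was far more abundant, with 19.5, 164 and 703 TPM, 36.2-fold higher on day 5 than on day 0 (interval 28.5 to 46.6). Only SD day 5 listed it among the SD libraries, at 1069 TPM. The tag ranked after it had 0.85, 23.7 and 58.8 TPM, and neither SD library listed it.

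The steady-falling tags began with one at 202, 44.6 and 0.54 TPM on days 0, 2 and 5, the last from 2 tags. It was 372-fold lower on day 5 than on day 0 (interval 102.5 to 3075), and it stood at 109 TPM in SD day 2 and was unlisted in SD day 5. A tag with 524, 129 and 10.6 TPM followed, 49.5-fold lower on day 5 (interval 36.1 to 69.9). It contains a run of 13 A, so it cannot be taken as the mark of a single transcript. The one after it had 355, 20.9 and 8.68 TPM in LD, against which SD held 293 TPM on day 2 and 95.9 TPM on day 5.

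Of the early-rising tags, the one with the largest first step had 20.01, 439 and 367 TPM on days 0, 2 and 5. LD day 2 was 21.9-fold higher than LD day 0 (interval 17.3 to 28.2). SD reached only 96.9 TPM on day 2 and 44.1 TPM on day 5. The next had 4.79, 111 and 161 TPM in LD, with 8.27 and 28.4 TPM on days 2 and 5 of SD. The one after it had 18.04, 248 and 385 TPM in LD, with 66.7 and 87.0 TPM in SD. For each of these 3 tags both SD values lay below both LD values of days 2 and 5.

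The early-falling tags showed the converse. The largest first step was that of a tag with 545, 17.2 and 10.9 TPM, a first step of 31.7-fold downwards (interval 24.5 to 41.6). SD held 201 TPM on day 2 and 64.7 TPM on day 5. It differs by 2 bases from the steady-falling tag at 355 TPM on day 0, and both may come from near-identical transcripts, so the assignment of either to its own transcript is uncertain. The next tag had 984, 43.4 and 36.9 TPM in LD, with 499 and 155 TPM in SD. The last had 43.1, 1.69 and 2.98 TPM in LD, with 34.8 and 32.4 TPM in SD, and its value on LD day 2 rested on 6 tags. All 3 were higher in SD than in LD on both days.

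The largest second step of any member belonged to a late-rising tag with 3.38, 2.26 and 143 TPM on days 0, 2 and 5. LD day 5 was 63.2-fold higher than LD day 2 (interval 31.8 to 147), and SD had 6.56 TPM on day 2 and 126 TPM on day 5. SD day 5 thus lay near LD day 5, while SD day 2, from 23 tags, lay above LD day 2, from 8 tags. The log2 step between these days was 4.07 in SD and 5.46 in LD. The next late-rising tags had 1.97, 1.41 and 23.9 TPM, and 0.56, 1.13 and 17.6 TPM. SD day 2 listed neither, and SD day 5 held them at 29.2 and 18.9 TPM, near LD day 5.

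Among late-falling tags, one with 89.1, 48.0 and 2.71 TPM was 17.7-fold lower in LD day 5 than in LD day 2 (interval 9.38 to 37.5). It had 75.3 TPM in SD day 2 and 8.02 TPM in SD day 5. A very abundant tag followed, with 1298, 919 and 76.7 TPM in LD and 1698 TPM in SD day 2, while SD day 5 did not list it. This tag also holds a run of A, 10 bases long, and its transcript is uncertain. The last of the 3 had 34.4, 19.2 and 1.08 TPM in LD, and 25.7 and 3.44 TPM in SD. All values of the SD libraries for the first and last of these tags followed the LD direction.

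The peak tags farthest out were less abundant. The first had 1.97, 20.3 and 1.90 TPM on days 0, 2 and 5, 10.3-fold higher on day 2 than on day 0 (interval 4.75 to 26.5). SD also had it high on day 2, at 22.5 TPM, and at 4.29 TPM on day 5. Another member 1 base apart, likewise a peak tag, had 3.38, 38.1 and 7.05 TPM in LD, and 34.5 and 11.5 TPM in SD, so the same peak was seen under a pair of near-identical tags, which are not independent. The second peak tag had 2.82, 39.5 and 5.15 TPM in LD, but only 3.42 and 4.58 TPM in SD. The last had 2.82, 27.4 and 3.52 TPM in LD, with 19.96 and 8.30 TPM in SD.

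The trough tags began with one at 64.3, 7.05 and 52.9 TPM on days 0, 2 and 5, 9.11-fold lower on day 2 than on day 0 (interval 6.02 to 14.4). SD stood at 11.7 TPM on day 2 and 20.6 TPM on day 5. The second had 14.9, 1.69 and 14.6 TPM in LD, where day 2 rested on 6 tags, and 10.6 and 6.01 TPM in SD. The last had 19.5, 3.38 and 19.5 TPM in LD, and 7.70 and 21.5 TPM in SD. SD day 2 lay below LD day 0 for all 3, and above LD day 2 for all 3.

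**Figure D2:**
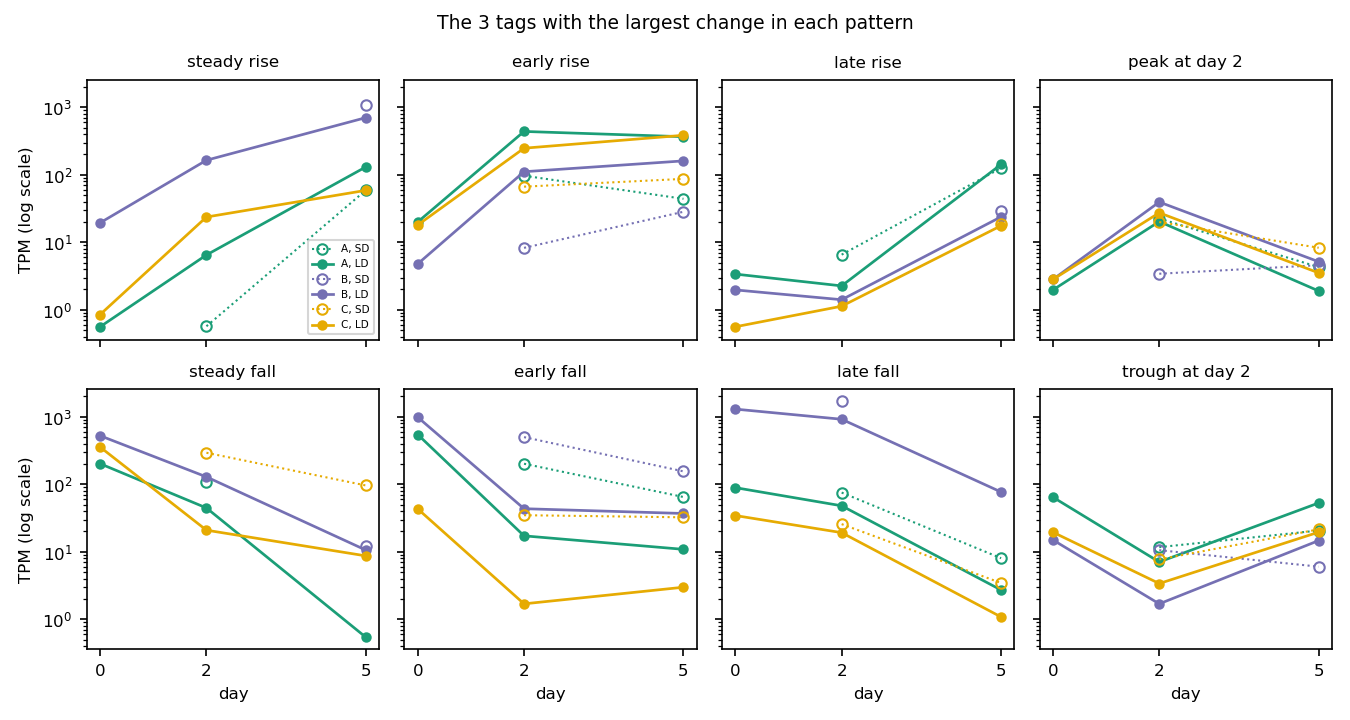
TPM (log scale) by day for the 3 tags farthest out in each pattern, with open points and dotted lines for SD and filled points and solid lines for LD, 1 library per point; a missing point is a tag that the library does not list. The largest span is that of the steady-falling tag with 202, 44.6 and 0.54 TPM on days 0, 2 and 5.

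The 5 most abundant members were chosen by their mean over the LD libraries. The first 4 were early-rising. The most abundant had 3096, 10796 and 9349 TPM on days 0, 2 and 5, and the next had 3530, 7374 and 6019 TPM. The remaining early-rising ones had 2889, 8764 and 4448 TPM, and 1782, 4720 and 4926 TPM. Their ratios of LD day 2 over LD day 0 were 3.49, 2.09, 3.03 and 2.65. The fifth had 3437, 2478 and 3743 TPM and no 2-fold step. Only 90 members had a mean of 500 TPM or more, and 43.3% of these had a 2-fold step, against 41.1% of the 2234 members with a mean of 10 to 20 TPM. A share of 56.3% among the 1095 members with a mean under 10 TPM is not comparable, because such a tag had to vary to reach 10 TPM on any day.

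The SD libraries were not used to define the patterns, and the step of SD day 5 over SD day 2 shares no library with the LD steps. Of the 6895 members, 5979 were listed in both SD libraries. Over these, 21.1% were higher and 19.7% lower by 2-fold in SD day 5 than in SD day 2. The same call over all tags listed in both SD libraries with 10 TPM or more in 1 of them gave 23.4% higher and 20.7% lower.

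The members that changed late in LD mostly changed in the same direction in SD between the same days. Of 236 late-rising members listed in both SD libraries, 141 were higher in SD day 5 than in SD day 2 and 2 were lower. Of 368 late-falling members, 300 were lower and 2 were higher. Among the 75 steady-rising members, 65 were higher and 0 were lower, and among the 143 steady-falling members, 137 were lower and 0 were higher. As shares these were 59.7%, 81.5%, 86.7% and 95.8%, beside the 21.1% and 19.7% of all members. Members with no 2-fold step in LD were at 14.4% higher and 14.3% lower.

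Members that changed early in LD also included many with a 2-fold step in SD between days 2 and 5. Of 1054 early-rising members listed in both SD libraries, 535 were higher in SD day 5 than in SD day 2 and 37 were lower. Of 570 early-falling members, 192 were lower and 9 were higher. The shares of 50.8% and 33.7% stand beside 21.1% and 19.7% for all members. In LD these tags had no 2-fold step in that interval, by the definition of the pattern. The difference between photoperiods in this step was not tested, since each value is 1 library.

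**Figure D3:**
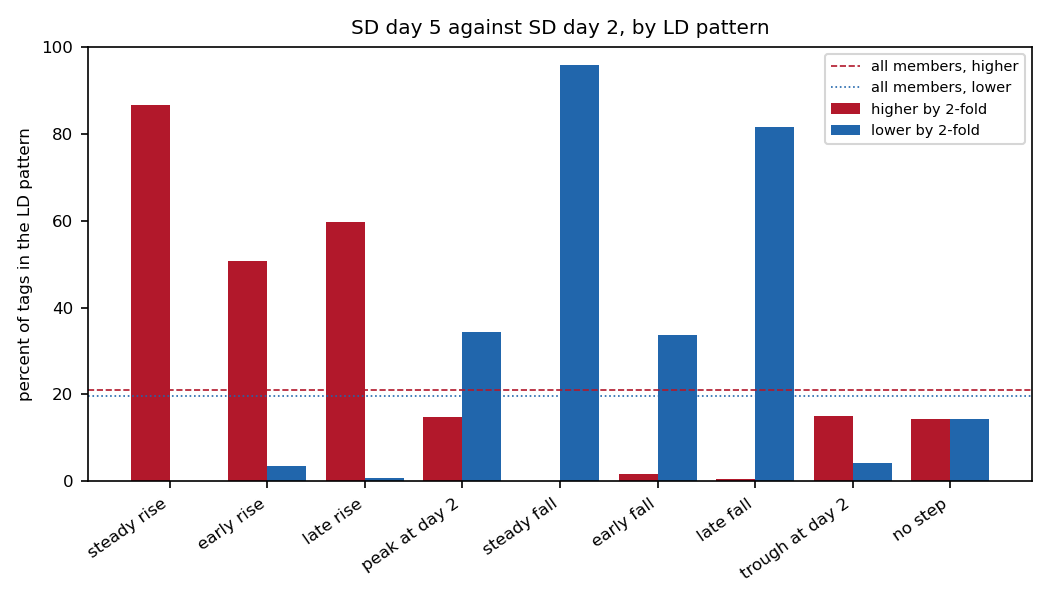
Percent of the members of each LD pattern, among those listed in both SD libraries, that were higher (red) or lower (blue) by 2-fold in SD day 5 than in SD day 2; dashed and dotted lines give the shares over all 5979 such members, 21.1% and 19.7%. Steady-falling members stood at 95.8% lower and steady-rising members at 86.7% higher.

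The levels show where these steps began. For the early-rising members listed in all 5 libraries, the median level was 11.7 TPM in SD day 2 and 26.2 TPM in SD day 5, against 8.74, 27.1 and 27.9 TPM in LD on days 0, 2 and 5. SD day 2 thus lay nearer to LD day 0 than to LD day 2. The early-falling members had medians of 19.1 and 10.9 TPM in SD, against 34.1, 11.9 and 13.2 TPM in LD, with SD day 2 between LD day 0 and LD day 2.

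For the steady-rising members the SD medians were 4.28 and 39.2 TPM on days 2 and 5, against LD medians of 4.51, 13.5 and 45.0 TPM on days 0, 2 and 5. The steady-falling members had 32.8 and 6.01 TPM in SD, against 43.4, 15.0 and 4.34 TPM in LD. In both patterns SD day 2 lay closer to LD day 0 than to LD day 2, and SD day 5 closer to LD day 5 than to LD day 2. The late-rising members had nearly the same medians in both photoperiods, 9.41 and 25.8 TPM in SD against 9.59 and 28.5 TPM in LD on days 2 and 5. The late-falling members had 28.8 and 8.30 TPM in SD, against 22.4 and 7.59 TPM in LD.

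The extremes of day 2 were less far out in SD by the medians. Peak members had 15.7 and 8.30 TPM in SD on days 2 and 5, against 7.89, 24.3 and 8.13 TPM in LD on days 0, 2 and 5. Trough members had 12.5 and 16.9 TPM in SD, against 18.9, 7.05 and 18.2 TPM in LD. Since these members were chosen for an extreme value in LD day 2, the choice alone favours a less extreme value in any other library. This holds for the early and steady patterns too, in which LD day 2 also entered the choice. In the late patterns LD day 2 entered as the start of the step that changed. Neither their level on LD day 2 nor their first step is therefore free of the choice.

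**Figure D4:**
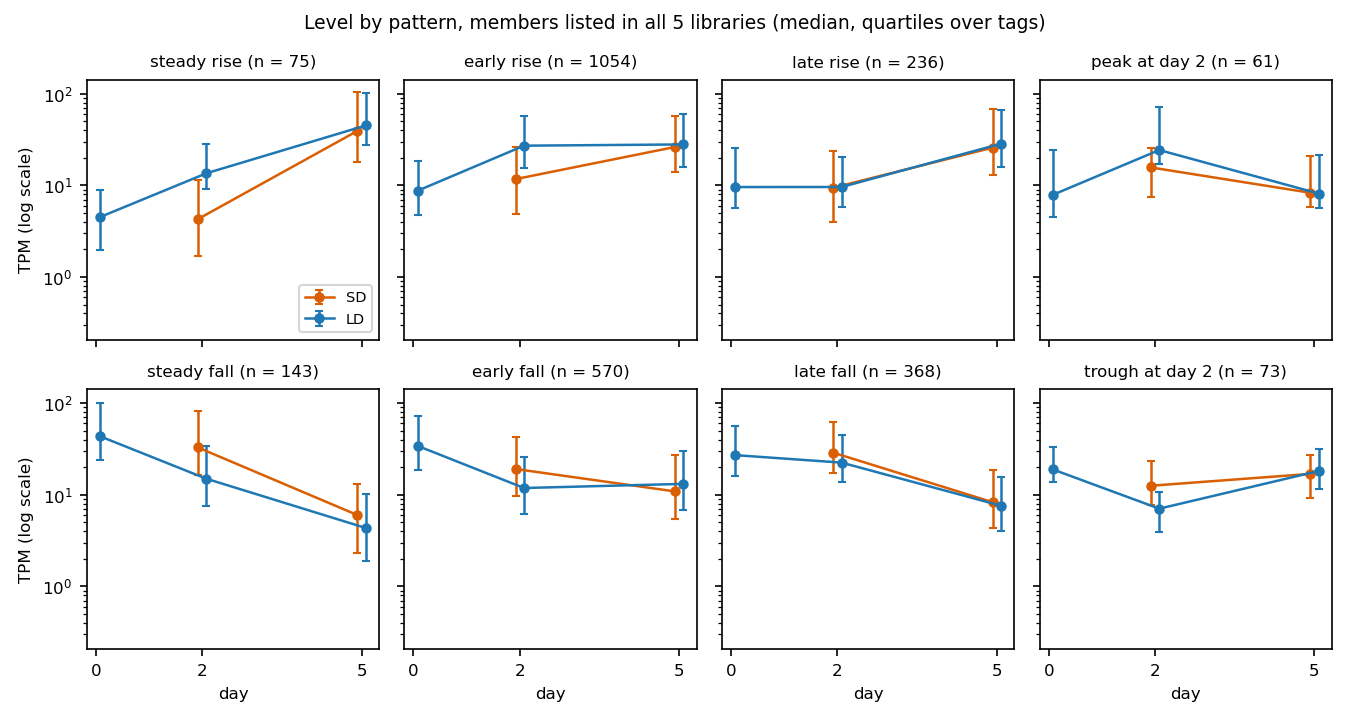
Median TPM (log scale) by day of each pattern's members listed in all 5 libraries, with bars from the lower to the upper quartile over tags, for SD (orange) and LD (blue); n is the number of tags, with 1 library per point. In the steady-rising panel the SD median of day 2, 4.28 TPM, lies at the LD level of day 0, while late-rising members have similar medians in SD and LD.

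The base composition of the tags moved with the first step. Among members with 0 to 4 G or C bases in the 17 bases after the site, the median first step was 0.44, and 403 of 1349 were higher and 89 lower in LD day 2 than in LD day 0. The median first step was 0.17 with 5 or 6 such bases, 0.03 with 7 or 8, -0.24 with 9 or 10, and -0.21 with 11 or more. In the group with 9 or 10, 108 of 826 were higher and 166 lower. The median share of G and C was 35.3% over all members, 35.3% in early-rising, 41.2% in early-falling, 29.4% in peak and 47.1% in trough tags.

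The second step had a smaller range over the same groups, with medians of -0.03, 0.01, 0.07, 0.14 and 0.09 in the same order of rising G and C content. In SD day 5 over SD day 2 the medians were 0.09, -0.05, -0.07, -0.25 and -0.25. Median abundance differed little between these groups, lying between 19.6 and 22.7 TPM. Each step was also centred on the median of tags with the same number of G and C bases. The first step then had 1136 higher and 1088 lower members. Such centring sets the median step to 0 by construction, which alone favours an even split, so nothing is read from it. The part of base composition in the first step was not tested.

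**Figure D5:**
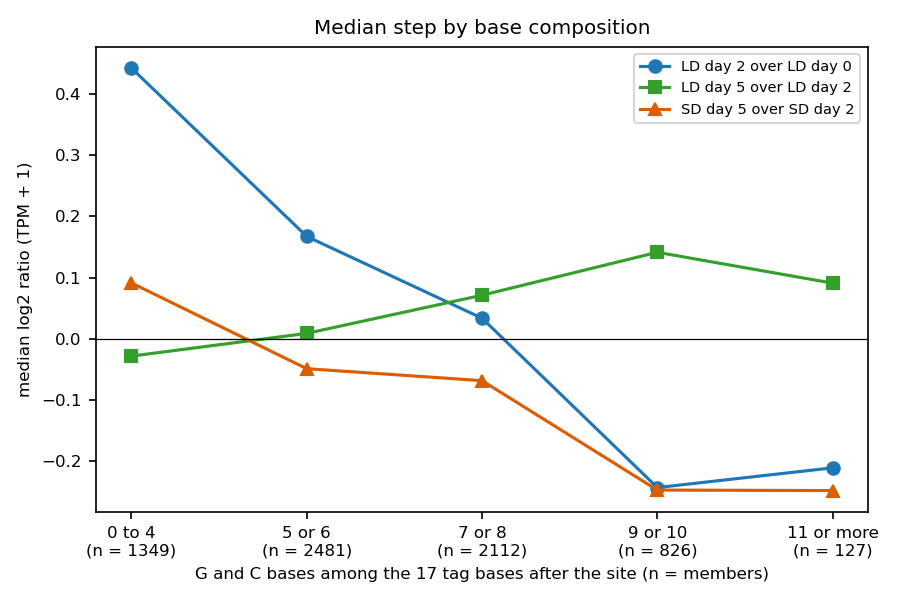
Median log2 ratio (vertical axis, 1 TPM added) of members grouped by their number of G and C bases (horizontal axis), for the LD steps over all members and for the SD step over members listed in both SD libraries. The first LD step has a median of 0.44 at 0 to 4 such bases and -0.24 at 9 or 10.

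Tags that differ by 1 base gave a view of near-identical transcripts. Members formed 39 such pairs, made of 76 tags, and in 26 pairs both tags had the same pattern. In 11 pairs both tags had a 2-fold step, and in 9 of these the pattern was the same. The remaining agreements were pairs in which neither tag had a 2-fold step, as was so for 56.4% of all members. Agreement in pairs of unrelated members was not counted. Tags so close can come from alleles, gene copies or misread bases of an abundant tag, and these sources cannot be told apart from the tag values.

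Gradual tags are here the 365 and 279 with no 2-fold step that were 2-fold higher or lower on day 5 than on day 0. Their definition keeps the change over the 5 days under 4-fold on the scale of the steps, and the farthest came close to it. The farthest on the higher side, chosen after its values were seen, had 114, 227 and 440 TPM on days 0, 2 and 5, 3.86-fold higher on day 5 than on day 0 (interval 3.46 to 4.32). In SD it had 31.1 TPM on day 2 and 572 TPM on day 5. The farthest on the lower side had 67.9, 35.5 and 17.6 TPM in LD, with 56.7 and 7.44 TPM in SD.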

How the data were processed

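Per the labels' protocols, tag libraries of polyadenylated RNA followed Illumina's instructions for its Gene Expression kit. The deposited values are headed TPM, per the file headers, and are RPM, that is reads per 1000000 of the library, with no division by transcript length. This follows from the values, which are whole multiples of a library-specific step within 0.0051 TPM, with at most 8 exceptions per library under 300 TPM; the lowest value is 2 steps. For the aligner, reference and tag filters, the sources used here name none. Step sizes gave the library totals and whole tags.

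Log2 ratios used a pseudocount of 1 TPM. Ratio intervals are Clopper-Pearson intervals conditional on the summed tags (scipy 1.17.1, Python 3.11.15). The code was tested on simulated data. No p-value was computed, as each group has 1 library. A tag that a library does not list was left out, not set to 0. The named tags are, per pattern, the 3 with the largest ratio of the kind given above, and the 5 with the highest mean. The members, patterns and rules were chosen with earlier results of these data known. Lists of genes could not be evaluated without transcript sequences. Alternatives changed the pseudocount, the floor, the scaling, the fold and the use of the interval; centring by base composition and the alternatives for the SD step were added after seeing the data.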

Additional observations from a re-analysis of the deposited data

Results flagged for a closer look

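Of the tags that reached 10 TPM in an LD library, 3193 were listed by 1 LD library alone and 2569 by 2, and these lie outside the time course. The share listed in all 3 was 54.5% at 10 TPM and 54.3% of the 3805 tags at 50 TPM or more, so it was not higher among abundant tags.

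Between days 2 and 5, 11 of the 5979 members listed in both SD libraries were 2-fold higher in SD and 2-fold lower in LD. Another 5 members were 2-fold lower in SD and 2-fold higher in LD. The same count over all tags was not made. Of the 11, 9 were peak tags, and of the 5, 3 were trough tags. Peak tags fall and trough tags rise at this LD step by definition, so nothing is read from their part. The differences between photoperiods were not tested. The farthest apart of the first kind, chosen after its values were seen, had 1.14 and 20.9 TPM in SD on days 2 and 5, against 11.6 and 4.88 TPM in LD. The farthest apart of the second kind had 179 and 21.5 TPM in SD, against 132 and 290 TPM in LD.

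Among the tags named, 4 had steps of opposite sign in the 2 photoperiods between days 2 and 5, each untested. The most abundant tag had a log2 step of 3.12 in SD and -0.21 in LD. The second peak tag had 0.34 in SD and -2.72 in LD. The second trough tag had -0.72 in SD and 2.54 in LD. The early-falling tag ranked last of its 3 had -0.10 in SD and 0.57 in LD, of which the LD values rested on 6 and 11 tags.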

How the results depend on the processing

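Of 152 alternative values of the counts above, 114 stayed within 1.5 times the reported count. Trimmed-mean and median-of-ratios scaling, rescaling to the listed tags, a pseudocount of 0.1 TPM, the counting interval and centring by base composition kept every total and pattern count they were run on within that range, though the first-step split was 1229 higher and 1058 lower with trimmed-mean scaling and 1272 higher and 1019 lower after rescaling. Of the 24 tags farthest out, none changed sign. Neither a pseudocount nor scaling factors of 0.917 to 1.052 could reverse ratios of this size, so nothing is read from that. Under those of these settings that were run on the 24 tags, 0 left the counting interval of their ratio. With a pseudocount of 5 TPM, 18 of the 24 log2 ratios lay outside it. The largest steady rise then stood at 4.61 in place of 6.40, the largest steady fall at -5.22 in place of -7.04, and the largest late rise at 4.35 in place of 5.46.

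In the order first-step changes, second-step changes, steady rise, steady fall, early rise, early fall, late rise, late fall, peak and trough, the counts were 788, 350, 40, 73, 408, 231, 79, 122, 18 and 18 with a floor of 50 TPM, where fewer tags enter. In the same order they were 835, 381, 10, 19, 521, 263, 104, 226, 14 and 8 at 3-fold. At 1.5-fold there were 3977 first-step and 2557 second-step changes, 378 steady-rising, 460 steady-falling, 466 late-rising, 315 peak and 372 trough tags. With a pseudocount of 5 TPM there were 650 second-step changes, 34 steady-rising, 73 steady-falling, 285 late-falling, 32 peak and 24 trough tags. With no floor there were 438 late-rising, 109 peak and 138 trough tags. The early-falling members lower in SD day 5 than in SD day 2 numbered 297 at 1.5-fold, 129 with a pseudocount of 5 TPM, and 85 at 3-fold. Leaving out a replicate was not possible with 1 library per group, and a peak or trough rests on the single LD library of day 2.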
